A study of Bos taurus with 6 samples.

Results

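Bovine bone marrow mesenchymal stem cells (MSCs) cast in agarose gel were kept for 42 days in a defined medium, either with transforming growth factor beta 3 (TGF-beta3) or without it. RNA of each culture was amplified and read on 1 Affymetrix bovine array, and these 2 arrays, both from constructs that were not compressed, are compared here. A probe set, the group of short oligonucleotides that reads 1 transcript, was a member of the comparison if its deposited signal was over 50 on at least 1 of the 2 arrays. This held for 11626 of the 24016 probe sets that were not controls. Of the members, 7711 carried 1 gene name, which gave 5990 genes, and each gene is represented by its brightest member. The other 4 arrays of the series are quoted beside the members as values: a pair with and without TGF-beta3 at day 21, an array without it at day 3, and a day 42 array of a construct with TGF-beta3 that had been compressed cyclically over its last 21 days. Neither the number of animals behind the cells nor any pooling of cells is stated in the labels. There was 1 array for each condition and hence no spread between replicates, so no p-value is given, and "higher" or "lower" means a log2 ratio, with minus without TGF-beta3, of at least 1 in size (2-fold) unless a value says otherwise.

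TGF-beta ligands bind a pair of receptor kinases at the cell surface, which phosphorylate SMAD proteins that enter the nucleus and act on target genes. In MSCs held in a round shape this is the standard signal for chondrogenesis, the formation of cartilage cells, which lay down type II collagen fibrils and aggrecan. MSCs can also turn into fat cells under the transcription factor PPARG, and marrow isolates can carry blood-derived cells with them. In RNA from a whole construct, fewer cells of a type and less RNA per cell cannot be told apart.

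The scale of the pair bears on every ratio. Hybridisation spikes are foreign transcripts added to each array in a fixed amount, and the median signal of these 18 probe sets was 2927 without and 7304 with TGF-beta3, a log2 ratio of 1.39 (range 1.27 to 1.48). On the deposited scale 3056 members (26.3%) were higher and 2362 (20.3%) lower, with a median log2 ratio of 0.10. By gene, 1558 (26%) were higher and 1079 (18%) lower, and these 2 shares are the background for the gene groups below. With the spike shift subtracted from every ratio, 312 genes (5.21%) were higher and 3465 (57.8%) lower. Of the probe sets that were either higher or lower, 56.4% were higher on the deposited scale, 53.2% after quantile normalization, 36.8% after centring on the median of all probe sets and 8.73% after subtraction of the spike shift. On all 4 scalings 312 genes were higher and 1012 were lower. Counts with the spike shift subtracted stand beside the main ones below, and their background is the 5.21% of genes higher and 57.8% lower on that scale.

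The shift was not the same at every brightness. Among the 158 members with a geometric mean signal over 5000 on the pair, the median log2 ratio was 1.21, 115 were higher and 1 lay below 0, and the 8 spikes as bright as these had a median of 1.36. Among the 600 members between 1000 and 2000 the median was 0.02, with 75 higher and 73 lower, while the 6 spikes in that class still had a median of 1.43. In the dimmest 25% of the members, with geometric means from 27.5 to 62.3, the median was 1.03, and 50.6% were higher and 25.6% lower. The dimmest 25% of the day 21 pair, chosen by the same rule on its own arrays, had a median of -0.16 with 24.0% higher. The part these shifts play in any single gene was not tested. The 100 probe sets just inside the signal limit of 50 had a median log2 ratio of 1.07 with 51 higher and 12 lower, and the 100 just outside it had 1.05 with 51 and 15. Because 1 array over the limit sufficed, 2170 members were over it only with TGF-beta3 and 1411 only without it, and these had to differ between the arrays.

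**Figure D1:**
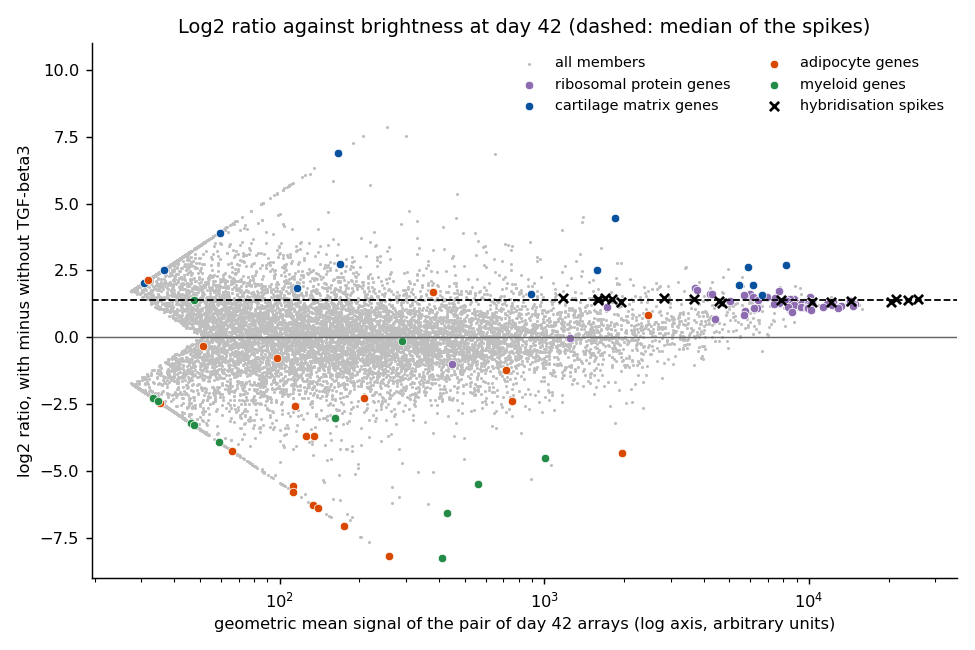
The log2 ratio of each of the 11626 members at day 42 (vertical axis, with minus without TGF-beta3) against the geometric mean of its 2 signals (horizontal log axis, arbitrary units), with 4 gene groups coloured, the 18 hybridisation spikes as crosses and their median of 1.39 as a dashed line. The spikes stay at one height across the brightness range, the ribosomal protein genes lie near them at the bright end, and the cartilage and the adipocyte and myeloid genes spread to opposite sides. The straight edges at left are bounds set by the floor.

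Different probe sets of 1 gene give the only measure of error on the same arrays. In 1337 genes with 2 or more members, the log2 ratios of the 2 brightest differed by a median of 0.70. Where neither was a bound the standard deviation of a single probe set was 0.80 (n = 1177 genes). Of 390 of these 1177 genes whose brightest probe set was higher or lower, the next brightest made the same call in 230 (59.0%) and the opposite call in 18. With bounds included this was 337 of 502 (67.1%) and 23. A ratio of size 1 is thus close to 1 such standard deviation. Signals under the floor of 15.1, the 40th percentile of all values, were set to it, and a ratio with 1 side there is written as "at least".

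At the upper end stood a mixed group of secreted and signalling genes. The microsomal prostaglandin E synthase PTGES, which makes prostaglandin E2, read 8.56 without and 2813 with TGF-beta3, at least 186-fold higher. The inducible cyclooxygenase PTGS2, which acts upstream of it, read 2.26 and 979, at least 64.6-fold higher, and its 3 probe sets gave log2 ratios of at least 4.34 to 6.01. The constitutive cyclooxygenase PTGS1 stood at 15.3 and 174 (log2 3.51), so both cyclooxygenases and this synthase were higher. BOLA-DQB1, a chain of the MHC class II molecule that presents peptides to T cells, read 60.9 without and 6995 with TGF-beta3 (log2 6.84), the largest ratio among genes over 50 on both arrays. Its other member probe set was dim, at 0.82 and 57.3, and gave a bound of at least 1.92. The size of this difference thus rests on 1 probe set. The other class II chains measured were not members, with BOLA-DQA1 at 0.32 and 11.6 and BOLA-DRA at 0.19 and 7.39. The antigen presentation list did not include BOLA-DQB1 itself. Of the 18 named genes on it 6 were members, of which none was higher and 3 were lower (5 with the spike shift subtracted). The 3 lower genes were PSMB8, PSMB9 and TAP2, none of them a class II chain. Each was over 50 only without TGF-beta3 and so could not count as higher. NRN1, the neuritin that promotes neurite growth, read 72.6 and 3017 (log2 5.38).

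Several cartilage and signalling genes that were barely read without TGF-beta3 came next. CLEC3A, a lectin-like protein of cartilage, read 0.38 without and 1846 with it, at least 122-fold higher. CHAD, the cartilage protein chondroadherin that binds cells and collagen, read 14.2 and 1819, at least 120.1-fold higher. The polarity-linked protein LRRC1 read 4.48 and 1207 (at least 79.7-fold), and the retinoic acid carrier CRABP2 7.94 and 780 (at least 51.5-fold). Among genes over 50 on both arrays, the stress-response gene IER3 (59.7 and 1579, log2 4.72), the annexin ANXA8L1 (311 and 6214, log2 4.32), the transglutaminase subunit F13A1 (57.9 and 888, log2 3.94), the secreted chemoattractant RARRES2 (90.6 and 1202, log2 3.73) and the calcium-binding RCN3 of the secretory pathway (55.9 and 731, log2 3.71) and the cyclin CCND2 (69.6 and 764, log2 3.46) completed the upper end with the matrix genes described below. All of these lay above the spike shift of 1.39 by more than the spread between probe sets. As they were named for having the highest ratios, this is no separate support. That spread also holds no variation between cultures or arrays.

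At the lower end stood genes of fat, host defence, binding proteins for growth factors, and detoxification. S100A12, a calcium-binding protein of granulocytes and macrophages, read 7152 without and 23.4 with TGF-beta3 (log2 -8.26), the lowest ratio of any gene. CD36, the fatty acid transporter, read 4437 and 0.89 and was at least 293-fold lower. IGFBP3, which binds insulin-like growth factors, read 3103 and 12.4 (at least 205-fold lower), and the secreted Wnt antagonist SFRP4 read 2111 and 14.3 (at least 139-fold lower). The calcium-binding S100G read 1567 without and was under the floor with TGF-beta3, at least 103.5-fold lower. Over 50 on both arrays, the lowest were the metal ion transporter SLC11A1 (3753 and 83.7, log2 -5.49), the lubricin gene PRG4 (3752 and 84.6, log2 -5.47), the beta-defensin EBD (5630 and 141, log2 -5.32), the selenium carrier SELENOP (2171 and 66.0, log2 -5.04) and the glutathione transferase MGST1 (5566 and 201, log2 -4.79). PRG4, the lubricant of joint surfaces, had 4 probe sets with ratios from -6.23 to -0.58, so its size is less sure than its direction. FGF10, a growth factor of mesenchyme (1478 and 56.6, log2 -4.71), RAMP2, which modifies the receptor for adrenomedullin (2399 and 103, log2 -4.55), and the iron-binding PIR (1201 and 66.5, log2 -4.17) followed, and the phospholipase PLA2G16 was close to them (1833 and 134, log2 -3.77).

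**Figure D2:**
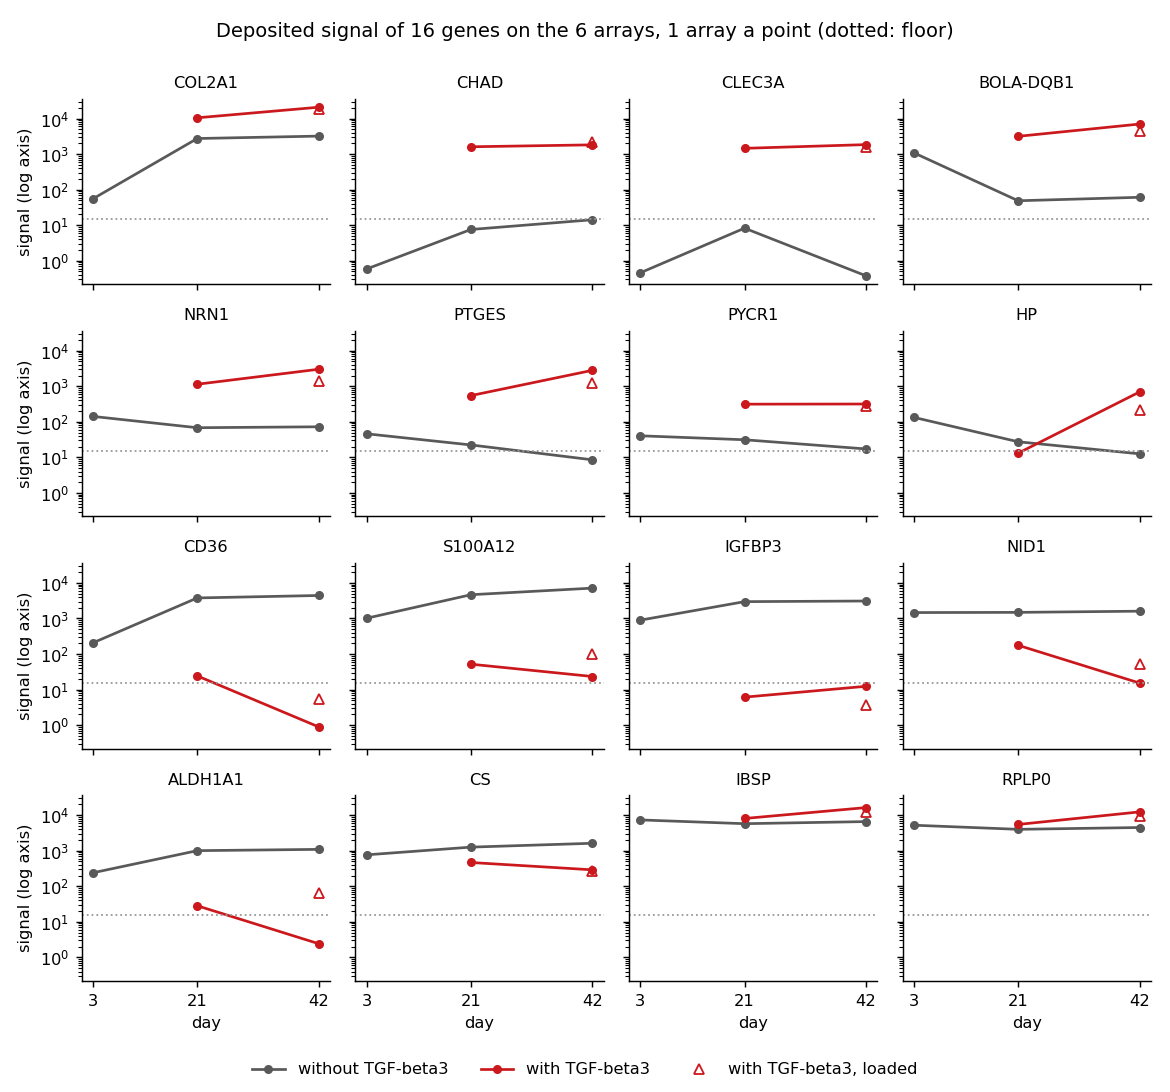
Deposited signal (log axis) of 16 genes by day, 1 array a point, without TGF-beta3 in grey, with it in red and with it plus cyclic compression as an open triangle; the dotted line is the floor of 15.1. CHAD and CLEC3A stay under the floor without TGF-beta3 and over 1400 with it, CD36 and S100A12 sit at 3784 or more without it from day 21 on and at 100.3 or less with it, and IBSP and RPLP0 are bright on every array.

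Cartilage matrix genes were higher throughout. Of 25 genes on this list 16 were named on the array and 14 were members, and all 14 were higher (median log2 2.52), against 26% of all genes. With the spike shift subtracted, 8 were still higher and none lower. COL2A1, the main fibril collagen of cartilage, read 3202 without and 20799 with TGF-beta3 (log2 2.70) and was among the 6 brightest genes with it. The fibril partner COL11A1 read 2366 and 14611 (log2 2.63, 7 probe sets), COL11A2 15.5 and 230 (log2 3.89), COL9A1 65.4 and 436 (log2 2.74) and COL27A1 61.1 and 221 (log2 1.86). Both bright chains, COL2A1 and COL11A1, were thus well read without TGF-beta3 as well by their brightest probe sets. The other probe sets of COL2A1 read only 21.0, 15.6 and 3.18 without TGF-beta3. Their log2 ratios were 5.84, 6.13 and at least 2.55, so the size for COL2A1 is less sure than its direction. The water-binding proteoglycan aggrecan (ACAN) read 666 and 3776 (log2 2.50), and the link protein HAPLN1, which ties it to hyaluronan, 2759 and 10763 (log2 1.96). The collagen-binding COMP read 393 and 8684 (log2 4.47). FMOD, a small proteoglycan that regulates fibril width (log2 1.97), PRELP, a proteoglycan anchored to basement membranes (1.62), and MGP, an inhibitor of calcification (1.57), were bright on both arrays and stood less than 1 log2 unit above the spikes. MATN1 (4.13 and 62.0, at least 2.03) and the cartilage membrane protein CNMD (9.24 and 87.8, at least 2.54) were members through the array with TGF-beta3 alone. CHAD and COL11A2 passed the limit in the same way. Such members could not count as lower, which bears on the count of 14. SOX9 and RUNX2, transcription factors of cartilage and bone formation, had no named probe set, and of the chondrocyte transcription factors only MEF2C was a member (61.4 and 153, log2 1.32, below the spike shift).

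Other matrix genes were higher in part. In the fibrous matrix list 13 of 21 members were higher and 3 lower (median log2 1.66), and 5 and 5 with the spike shift subtracted. Elastin (ELN) read 0.73 and 751, at least log2 5.63, with another probe set at 3.33. Dermatopontin (DPT), which binds decorin and collagen, read 293 and 6693 (log2 4.52), and TGFBI, an adhesion protein named for its induction by TGF-beta, 99.2 and 1733 (log2 4.13). Type I collagen was higher in both chains, with COL1A1 at 478 and 3009 (log2 2.65) and COL1A2 at 1869 and 7828 (log2 2.07). In contrast the fibrillin FBN1 of elastic microfibrils read 1894 and 474, the anti-adhesive tenascin TNC 2574 and 833 (log2 -1.63), and the thrombospondin THBS2 247 and 3.71 (at least 4.03 log2 units lower). Elastin and the fibrillin that scaffolds it thus had ratios of opposite sign. Of basement membrane genes 5 of 10 members were lower and 3 higher, and 6 were lower and none higher with the spike shift subtracted. The laminin linker NID1 read 1606 and 15.2 (log2 -6.72), COL4A1 270.2 and 19.3 (log2 -3.81) and the laminin chain LAMB1 2210.2 and 412 (log2 -2.42), while LAMB2 was higher at log2 1.33, which is below the spike shift. The proteoglycan perlecan (HSPG2), found in cartilage as well as in basement membranes, read 44.8 and 96.8 (log2 1.11, also below it).

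Enzymes that build and fold these matrix proteins were higher in more than 50% of members on the deposited scale. Among collagen processing genes, 13 of 19 members were higher and 1 lower (median log2 1.29), but 3 and 3 with the spike shift subtracted. The highest were FKBP10, a prolyl isomerase of the endoplasmic reticulum (106 and 1076, log2 3.35), LOX, which oxidises lysines for crosslinks (332 and 2672, log2 3.01), and the prolyl hydroxylase subunit P4HA2 (491 and 3544, log2 2.85). PCOLCE2, an enhancer of propeptide cleavage, was the lower member (log2 -1.06), while its relative PCOLCE was higher (log2 1.04, below the spike shift); both sizes lay within about the spread between probe sets of the 2-fold limit. For glycosaminoglycan chains, 9 of 16 members were higher and 1 lower (median 1.24). The chondroitin polymerising factor CHPF read 22.2 and 282 (log2 3.67), the sulphotransferase CHST11 5.03 and 75.2 (at least 2.31), and the hyaluronan synthase HAS2 had a log2 ratio of 1.92, with another probe set at 0.81. UGDH, which makes the glucuronic acid precursor for these chains, was the lower one, at 1812 and 659 (log2 -1.46). Once the spike shift was subtracted, CHPF alone of these 16 was higher and 4 were lower (median -0.15).

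Amino acid synthesis was a group in which several members stood above the spikes. Of its 15 members, 9 were higher and none lower (median log2 1.84), and 5 were higher and 3 lower with the spike shift subtracted. PYCR1, the last enzyme of proline synthesis, read 17.3 without and 317 with TGF-beta3 (log2 4.20). The serine pathway was higher at each measured enzyme: PHGDH, its entry enzyme, read 34.7 and 415 (log2 3.58), PSAT1 836 and 2807 (log2 1.75), PSPH 414 and 1482 (log2 1.84), and SHMT2, which converts serine to glycine in mitochondria, 96.1 and 500.4 (log2 2.38). Proline and glycine are the residues most used in collagen. The amino acid importer SLC7A5 read 9.70 and 116 (at least 2.93) and its partner chain SLC3A2 61.7 and 318 (log2 2.37). The glutamine importer SLC1A5 read 364 and 1840 (log2 2.34). Targets of the amino acid stress response outside biosynthesis were higher too, with SESN2 at 20.1 and 153 (log2 2.92) and CHAC1 at 0.39 and 101 (at least 2.74). PYCR1, PHGDH, SLC7A5, SESN2 and CHAC1 passed the signal limit only with TGF-beta3 and so could not count as lower. They are the 5 members still higher with the spike shift subtracted, which bears on that count. PSAT1, PSPH, SHMT2 and SLC3A2 were over the limit on both arrays and stood less than 1 log2 unit above the spikes. Glutamine synthetase (GLUL) differed by less than the limit, in the other direction (3945 and 2018, log2 -0.97). Of the enzymes that charge transfer RNAs, 5 of 17 were higher and none lower (1 and 8 with the spike shift subtracted), led by CARS1 for cysteine (16.4 and 93.4, log2 2.51). The share higher was near the 26% of all genes, and none was lower against 18% of all genes. With the spike shift subtracted, the share lower was under the 57.8% of all genes. CARS1, the member still higher on that scale, passed the signal limit only with TGF-beta3.

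The secretory path and the ribosome showed smaller shifts of many genes. Of 46 members for folding and traffic in the endoplasmic reticulum, 17 were higher and 2 lower (median 0.62). ERO1A, the oxidase that drives disulphide formation, read 64.1 and 313 (log2 2.29), the translocon-associated SSR4 2103 and 8752 (log2 2.06) and the retrieval receptor KDELR1 390.2 and 1540 (log2 1.98). HYOU1, a chaperone of that compartment, read 12.9 and 114 (at least 2.91), yet 21.0 on the loaded array. With the spike shift subtracted 1 member was higher and 16 lower. Ribosomal protein genes were packed closely: 56 of 62 members were higher and 1 lower (median 1.26), and with the spike shift subtracted none was higher, 2 were lower and the median was -0.13. Among the brightest genes on both arrays, RPL30 read 9657 and 23084 (log2 1.26), RPS27 8833 and 22906 (log2 1.37) and TPT1, a growth-linked translation protein, 9332 and 22858 (log2 1.29). RPLP0 (4490 and 12355, log2 1.46) and GAPDH (2476 and 6344, log2 1.36), common reference genes, lay at the spike shift as well. IBSP, the bone sialoprotein of mineralising tissue, lay there too, at 6588 and 16329 (log2 1.31) and at 5750.4 or more on all 6 arrays, although its other probe set gave 6.08. BGLAP and DMP1, other bone-forming cell genes, read 0.31 and 2.49, and 0.43 and 17.0.

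Mitochondrial genes stood apart from the ribosomal ones. Of 36 members of respiratory complex I, none was higher and 4 were lower (median log2 -0.06), and of 37 members of complexes II to V, 1 was higher and 6 lower (median -0.24). With the spike shift subtracted, 34 and 31 of them were lower and none higher. Their median signals without TGF-beta3 were 1635 and 2962, against 5906 for the ribosomal genes. Over all members the median log2 ratio was 0.02 at mean signals of 1000 to 2000, 0.33 at 2000 to 5000 and 1.21 above 5000. The part of brightness in what follows was not tested. The gap between the ribosomal and the complex I median was 1.32, which no subtraction of a constant can alter, but it was 0.27 after quantile normalization and 0.60 at day 21. The citric acid cycle and the pyruvate dehydrogenase step before it were lower in 7 of 13 members and higher in 2 (median -1.29; 10 and none with the spike shift subtracted), against 18% of genes lower. Citrate synthase (CS), the entry step, read 1619 and 290 (log2 -2.48), the pyruvate dehydrogenase chain PDHA1 572 and 176 (log2 -1.70, with its 4 probe sets at -1.70 to -0.55), and DLD, a subunit shared by the dehydrogenases, 717 and 245 (log2 -1.55). The succinate dehydrogenase subunit SDHA read 908 and 184 (log2 -2.30) and the ATP synthase ring subunit ATP5MC1 409 and 48.5 (log2 -3.07). The higher members were IDH2 (136 and 308, log2 1.18) and OGDH (57.7 and 129, log2 1.16), both below the spike shift. At day 21 the same cycle genes had 2 lower and 1 higher of 13 (median -0.63).

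Glycolysis and low-oxygen genes were higher in 15 of 26 members and lower in 2 (median 1.33), and higher in 5 and lower in 8 with the spike shift subtracted. The vessel growth factor VEGFA read 142 and 2096 (log2 3.88), the aldolase ALDOC 11.5 and 148 (at least 3.29), the mitochondrial BNIP3, induced by low oxygen, 190.3 and 1596 (log2 3.07), and the lactate exporter SLC16A3 70.4 and 744 (log2 3.40). The glucose transporter SLC2A1 read 445 and 2115 (log2 2.25). The lower members were EPAS1, the HIF2 alpha subunit (1147 and 206, log2 -2.48), and PFKFB3, a regulator of glycolysis (1660 and 588, log2 -1.50), while HIF1A, the sister subunit, read 1307 and 5293 (log2 2.02). Of the cell cycle list, 37 genes were named and 18 were members, of which 11 were higher and 2 lower (3 and 5 with the spike shift subtracted). Several were dim, with the ubiquitin enzyme UBE2C at 2.11 and 173 (at least 3.52) and the kinase AURKB at 7.73 and 74.8 (at least 2.30).

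**Figure D3:**
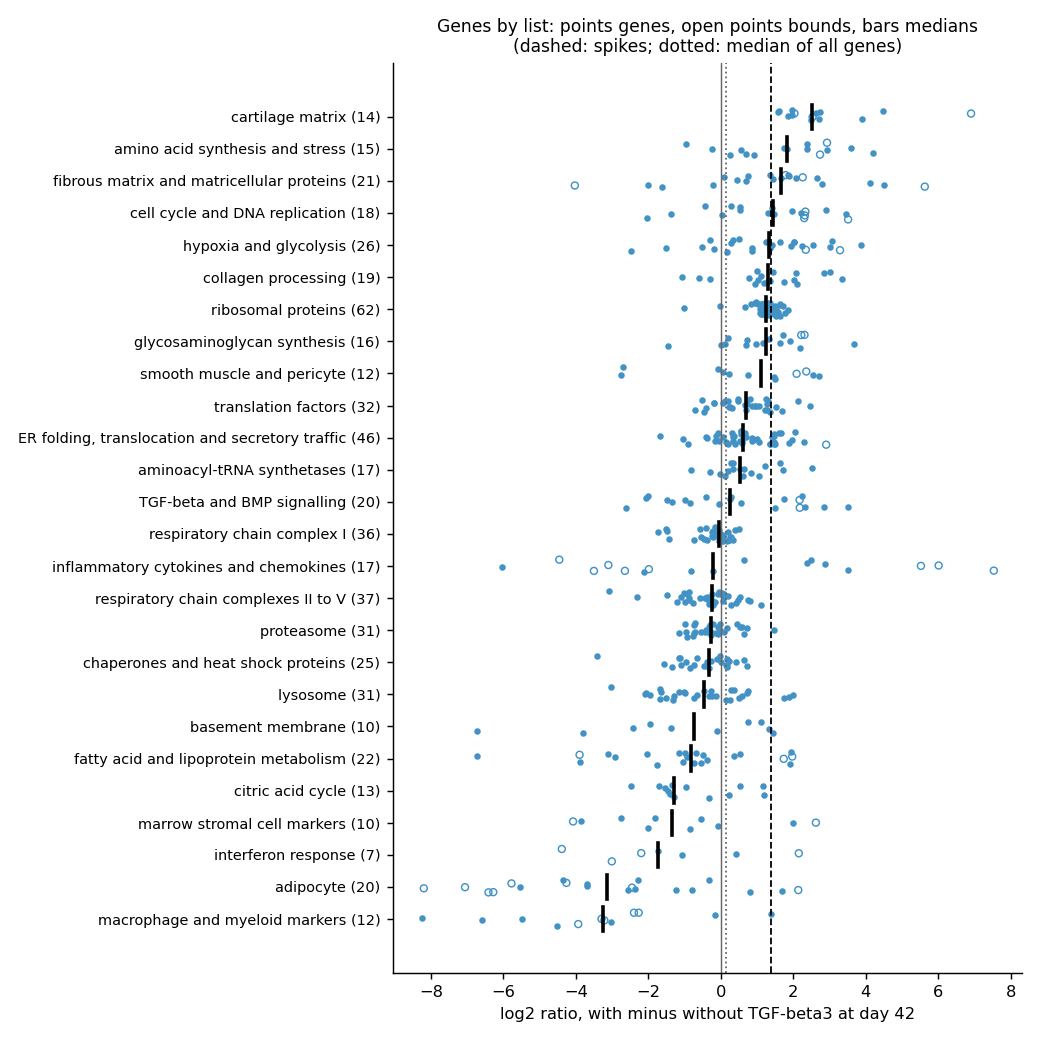
Log2 ratios at day 42 (horizontal axis, with minus without TGF-beta3) of the member genes of 26 lists, 1 point a gene, open where the value is a bound, with the list median as a bar and the number of member genes in brackets; the dashed line is the spike shift of 1.39 and the dotted line the median of all genes, 0.15. The median of the cartilage matrix list lies furthest to the right (2.52) and those of the adipocyte (-3.14) and myeloid (-3.25) lists furthest to the left, with the ribosomal genes packed near the spikes and the respiratory chain genes near 0.

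Genes of the TGF-beta pathway itself were found on both sides. Of 20 members 8 were higher and 5 lower (median 0.26), with 2 and 11 after the spike shift was subtracted. Among ligands, the activin chain INHBA read 26.2 and 301 (log2 3.52) and TGFB2 701 and 175. The TGFB3 gene was not a member, at 15.8 without and 31.7 with the added protein. Among receptors TGFBR2 read 511 and 1717 (log2 1.75), TGFBR1 123 and 146 (log2 0.25) and BMPR2 963 and 537 (log2 -0.84). The signal carriers split as well, with SMAD3 at 91.4 and 259, and log2 ratios for SMAD4 of 0.28, SMAD2 of -1.49 and the BMP-side SMAD5 of -2.05. Among targets and inhibitors, PMEPA1, a feedback inhibitor, read 9.16 and 68.4 (at least 2.18), the repressor TGIF1 300 and 1513 (log2 2.34), the follistatin FST 14.4 and 68.7 (at least 2.18), and the BMP-responsive ID1 and ID3 were higher by log2 2.23 and 2.85 at signals of 103 and 127. The latent-form binding proteins were lower, LTBP1 by log2 -1.33 and LTBP2 by -2.61.

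Other growth factor genes also split by member. IGFBP5 read 3.05 and 476 (at least 4.97) where IGFBP3 and IGFBP2 (227 and 24.2, log2 -3.23) were lower, and both ligands were dim, with IGF2 at 7.90 and 90.4 and IGF1 at 17.6 and 60.1. In the Wnt list, the nuclear effector LEF1 read 15.5 and 291 (log2 4.23) and the secreted inhibitor DKK1 10.8 and 61.1 (at least 2.01), while SFRP4 and SFRP1 (2726 and 503, log2 -2.44), which also bind Wnts, were lower. In the fibroblast growth factor list 5 of 12 members were lower and 3 higher (8 and 1 with the spike shift subtracted). PTH1R, the receptor for the parathyroid hormone-related protein that holds back chondrocyte maturation, read 23.3 and 198 (log2 3.08), against 0.26 at day 21. EGFR read 164 and 1.08 (at least 3.44 log2 units lower) and the signalling inhibitor SPRY1 had a log2 ratio of -3.03. COL10A1, which encodes the collagen typical of hypertrophic chondrocytes, read 107 with TGF-beta3 at day 42 (log2 2.74) and 748 on the loaded array. The collagenase MMP13, also of hypertrophic cartilage, read 132 and 7.06, at least 3.12 log2 units lower.

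Fat cell genes were lower in most members. Of 20 adipocyte members 15 were lower and 2 higher (median log2 -3.14), against 18% of all genes lower, and 17 were lower and none higher with the spike shift subtracted. PPARG read 771 without and 16.5 with TGF-beta3 (log2 -5.55), and the fat hormone ADIPOQ 290.1 and 0.39 (at least 4.26 log2 units lower). FABP4, the fatty acid carrier of fat cells, was the brightest of these without TGF-beta3 and read 8822 and 434 (log2 -4.34), with another probe set at -7.49. The lipid droplet protein CIDEC read 829 and 2.05, the triglyceride synthase DGAT2 2017 and 8.45, and the lipogenic THRSP 1288 and 0.21, all bounds of log2 -5.78 to -7.06. On the array without TGF-beta3 at day 3, ADIPOQ read 1.38, CD36 207 and FABP4 2800.5, so these genes were brighter in the day 42 control than in the cells at day 3. The lipoprotein lipase LPL went the other way, with 1854 at day 3 and 1094 in the day 42 control. The higher members were CEBPB (211 and 680, log2 1.69), a factor with roles outside fat, and DGAT1 (12.5 and 66.7, a bound of 2.14). The droplet protein PLIN2, found in many cells, read 1850 and 3264 (log2 0.82).

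Enzymes that burn and lengthen fatty acids were lower in 9 of 22 members and higher in 4 (17 and none with the spike shift subtracted). The beta-oxidation enzymes ACADM (933 and 62.7, log2 -3.89) and ACADL (941 and 109, log2 -3.12), the elongase ELOVL6 (619 and 81.7, log2 -2.92) and PDK4, which blocks pyruvate dehydrogenase when fat is burnt (1948 and 18.2, log2 -6.74), were lowest. The lipid carrier APOD was higher, at 4570 and 17096 (log2 1.90). Cholesterol synthesis was split, with 4 of 14 lower and 2 higher (11 and none with the spike shift subtracted), and the squalene synthase FDFT1 at 1624 and 340 (log2 -2.26, with another probe set at -0.09). Beside the carriers of fatty acids, CRABP2, the retinoic acid carrier, was higher and ALDH1A1, which makes retinoic acid, read 1091 and 2.42, at least 6.17 log2 units lower. The muscle-type carrier FABP3 read 415 and 185 (log2 -1.16).

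Myeloid genes were lower as well. Of 22 named genes on the list 12 were members, 10 were lower and 1 higher (median -3.25), and 11 were lower and none higher with the spike shift subtracted. GPNMB, a glycoprotein of macrophages and bone cells, read 4207 and 43.8 (log2 -6.59), S100A8 4834 and 210 (log2 -4.53), and the lysosomal protease CTSS 466 and 56.8 (log2 -3.04). The pan-leukocyte CD53 read 231 and 9.95, the macrophage protein AIF1 148 and 10.1, and CD68 79.6 and 7.58, all bounds. The common leukocyte antigen PTPRC stayed under the limit on both arrays, at 48.2 and 20.1, so the defining markers were dim even without TGF-beta3 while S100A12, S100A8 and SLC11A1 were bright. Its partner protein S100A9 read 306 and 275 (log2 -0.16), unlike S100A8. Summed over 10 myeloid markers the signal was 655 without and 235 with TGF-beta3, of which LAPTM5 gave 29.2 and 76.7. The 5 lymphocyte markers summed to 5.92 and 69.6, and the endothelial PECAM1 and the erythroid HBB read 6.49 and 20.8, and 6.18 and 7.46.

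Host defence genes were divided. The inflammatory list held 7 higher and 7 lower of 17 members, and 6 and 9 with the spike shift subtracted. The prostaglandin genes, the monocyte chemokine CCL2 (256 and 1873, log2 2.87) and TNFAIP6, which modifies hyaluronan (74.4 and 418, log2 2.49), were higher, while the pentraxin PTX3 (1292 and 19.6, log2 -6.04), the neutrophil chemokine CXCL5 (332 and 0.75, at least 4.46 log2 units lower) and CCL20 (130 and 2.52, at least 3.10) were lower. Complement genes were lower in 7 of 14 members and higher in 4 (9 and 1 with the spike shift subtracted), with factor B (CFB) at 420.2 and 52.0 (log2 -3.01), C1S at 852 and 202 (log2 -2.08) and the endotoxin-binding LBP at 337 and 32.4 (log2 -3.38). Haptoglobin (HP), which binds free haemoglobin, went the other way, at 12.6 and 697 (at least 5.53), and the protease inhibitor SERPINA1 read 351 and 2639 (log2 2.91). Interferon-response genes were lower in 5 of 7 members and higher in 1 (5 and none with the spike shift subtracted), with ISG15 at 317 and 12.5 (at least 4.39 log2 units lower). At day 21 only 2 genes of this list passed the signal limit, neither of them higher or lower. ISG15 read 2.50 without and 12.6 with TGF-beta3 at day 21, both under the floor. The immunoproteasome subunits PSMB8 (140 and 19.0, log2 -2.88) and PSMB9 (56.7 and 3.24, a bound of -1.90) were also lower at day 42. Both are among the lower genes of the antigen presentation list counted above. At day 21 their log2 ratios were -0.28 and 0.74. Of 31 constitutive proteasome members, 29 stayed within 2-fold at day 42 on the deposited scale, and 25 of the 31 were lower with the spike shift subtracted.

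Markers of the starting cells were lower more often than higher, in 5 against 2 of 10 members (median -1.34; 8 and 1 with the spike shift subtracted). CD44, the hyaluronan receptor, read 483 and 137 (log2 -1.82), THY1 64.3 and 16.1, and the chemokine CXCL12 255 and 4.15, at least 4.08 log2 units lower. NT5E, the ectoenzyme CD73 and likewise a marker of MSCs, read 379 and 1508 (log2 1.99). The leptin receptor LEPR, found on marrow MSCs in other species, was under the floor on both arrays. Contractile genes were higher in 6 of 12 members and lower in 2 (2 and 5 with the spike shift subtracted), with TAGLN at 59.6 and 389 (log2 2.71) and ACTA2 at 140.0 and 812 (log2 2.54), and the kinase MYLK at 782 and 121 (log2 -2.69). Adhesion and cytoskeleton genes were lower in 6 and higher in 4 of 28 members, and the share lower was near the 18% of all genes. With the spike shift subtracted 17 were lower, a share near the 57.8% of all genes, and none higher. CAV1, the caveolin, read 4126 and 1085 (log2 -1.93), VCL 566 and 118 (log2 -2.26), and the cadherin CDH2 of another list 290 and 1.12 (at least 4.26 log2 units lower).

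Lysosomal genes were lower in 12 of 31 members and higher in 3 (median -0.47), and redox genes in 12 of 32 with 7 higher. Subtracting the spike shift left 24 lysosomal genes lower and none higher, and 24 redox genes lower and 1 higher. Cathepsin K (CTSK), which cuts collagen, read 4188 and 1317 (log2 -1.67) and cathepsin H (CTSH) 1017 and 237 (log2 -2.10). Catalase (CAT) read 1955 and 432 (log2 -2.18) and MGST3 5905 and 937 (log2 -2.66), while GPX7, a peroxidase of the endoplasmic reticulum, read 85.8 and 631 (log2 2.88). Among chaperones none of 25 was higher and 6 were lower (22 with the spike shift subtracted), with CRYAB at 2137 and 202 (log2 -3.40). Of 22 chromatin regulators 6 were higher, all at 113 or less, a share near the 26% of all genes. Another 2 were lower, among them EZH2, which methylates histone H3 (314 and 96.3, log2 -1.71). Once the spike shift was subtracted, 12 of the chromatin regulators were lower, a share near the 57.8% of all genes, and none higher. Of 14 nuclear receptor and clock genes 6 were higher and 3 lower (1 and 7 with the spike shift subtracted), of which RARA, a retinoic acid receptor, read 9.66 and 200.4 (at least 3.73).

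The day 21 pair shares no array with the day 42 pair, and its spikes differed by only 0.27. Over the 5318 genes over 50 on at least 1 array of each pair, the log2 ratios of the days had a Pearson correlation of 0.72 and a Spearman correlation of 0.59. This is a description across genes, which are not replicates. Of 1068 genes higher at day 42, 446 were higher and 28 lower at day 21, and of 1007 lower at day 42, 487 were lower and 18 higher. Over all 5318, 13.8% were higher and 14.7% lower at day 21. The extremes lay the same way: BOLA-DQB1 read 48.7 and 3158 at day 21, CLEC3A 8.25 and 1452, CD36 3784 and 24.3, and IGFBP3 2978 and 6.14. Other genes were under 2-fold higher, or not higher, at day 21. HP read 27.5 without and 13.2 with TGF-beta3 at day 21, SERPINA1 had a log2 ratio of -0.61 and PTH1R of 0.26 there, and CHPF had 0.57. NID1 was lower on both days but further at day 42 (log2 -3.07 and -6.72), and DDIT4L, an inhibitor of growth signalling, less so (-6.55 and -2.82).

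A few genes were higher at 1 time and lower at the other, each by 2-fold or more. FLOT2, a membrane scaffold, had log2 ratios of -1.35 at day 21 and 3.08 at day 42, with its 3 probe sets at 2.73 to 3.15 on the later day. At day 21 its other probe sets had 0.56 and -0.16, so the lower call there rests on 1 probe set. The interferon regulator IRF2 had -1.30 and 3.08, on 2 probe sets at 3.08 and 3.42, and the non-muscle myosin MYH10 -1.22 and 2.82, but its other probe set had -1.21 at day 42. In the other direction lay the carbonic anhydrase CA2 (3.04 and -1.09), the RNA-processing ZC3H8 (1.60 and -2.24), the ubiquitin ligase RNF34 (2.32 and -1.37), the co-chaperone BAG3 (1.02 and -1.56), FABP3 (2.32 and -1.16) and MMP13 (1.45 and a bound of -3.12). Most of these genes were dim, with CA2 at 232 and 109 on the day 42 arrays and RNF34 at 65.7 and 25.5, and with 1 array a point these reversals have no replicate check.

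The loaded day 42 array was set against the same control array, so its ratios are not an independent repeat and are given only beside the others. Its spikes stood at 0.99 over that control. There COL2A1 read 18307, COMP 6135, PTGES 1213 and BOLA-DQB1 4561, all far over the control. Some lower genes were nearer the control on it. DUSP1, a phosphatase that ends kinase signals, read 1707 without TGF-beta3, 283 with it and 1789 with loading (log2 0.07 over the control), and CXCL12 read 104 there against 4.15 unloaded. EBD read 960 with loading and 141 without it.

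**Figure D4:**
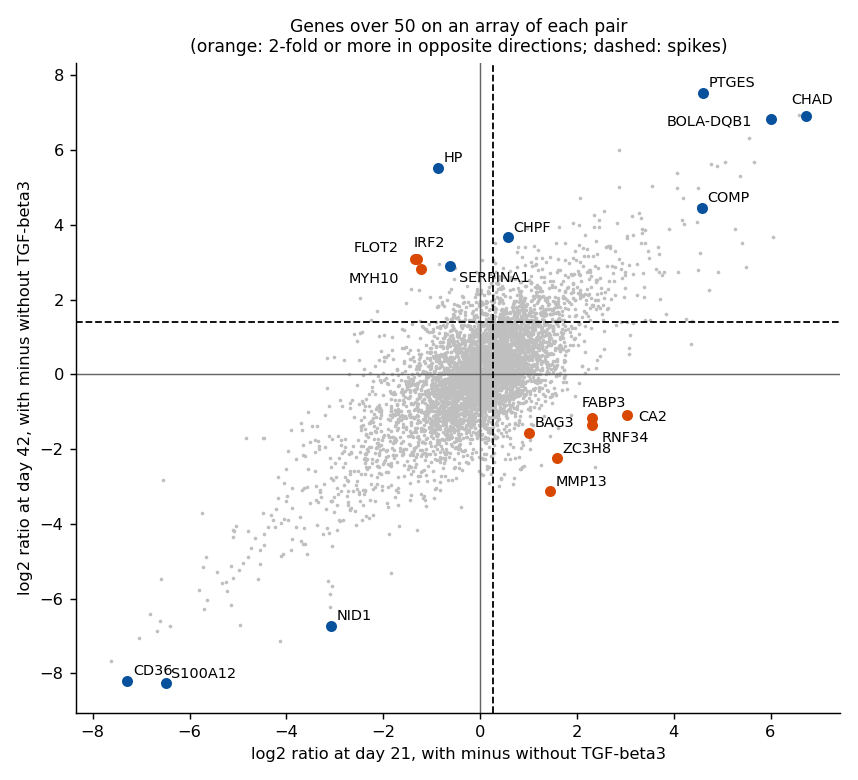
Log2 ratios, with minus without TGF-beta3, of 5318 genes at day 21 (horizontal axis) and day 42 (vertical axis), 1 point a gene, with the spike shift of each pair (0.27 and 1.39) dashed. Most extreme genes, in blue, lie along the diagonal, HP, SERPINA1 and CHPF lie high at day 42 only, and the genes with opposite directions, in orange, lie in the upper left and lower right.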

How the data were processed

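Each of the 6 cultures gave 1 Affymetrix bovine array. Per the labels' protocols, total RNA was linearly amplified (NuGEN Ovation, ribo-SPIA) and hybridised as biotinylated cDNA. The deposited values are linear intensities. Per the submitters' processing notes the authors used MAS5, and the trimmed mean of the values is 150 on every array. They were used as deposited. Of the 24016 probe sets that are not controls, 13292 carry 1 gene symbol in GEO's platform annotation, 86 several and 10638 none, and probe sets with several symbols named no gene.

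Values under 15.1 were set to that floor, the ratio with minus without TGF-beta3 was taken as log2, and the size limit was 1. Adjustments tried were spike shift subtraction, median centring by 0.46, quantile normalization, other floors and limits, and another probe set rule. With 1 array a side no test was possible. The calculations were tested on simulated data (Python 3.11.15, numpy 2.4.6, pandas 2.3.3).

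The members and the 53 gene lists were chosen with earlier results of these data known. Genes were named by size, namely the 12 highest and 12 lowest over 50 on both arrays, the 6 highest and 6 lowest bounds, up to 3 highest and 3 lowest in each list, a fixed set, the 6 brightest on each array and the 5 that differed most from day 21 each way. Fewer are given than this names. Others, such as PTGS1, IBSP, COL11A1, PSAT1, HIF1A, SMAD3 and S100A9, were added as relatives of those genes after their values were seen. Precision is limited by the number of arrays.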

Additional observations from a re-analysis of the deposited data

Results flagged for a closer look

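Between the days 28 genes were at least 2-fold higher at day 42 and lower at day 21, and 18 the reverse. Those of them that the report names are given here with their day 42 log2 ratio, with minus without TGF-beta3. The difference between the days was not tested, since each pair holds 1 array a side. Among the 28 were FLOT2 (3.08, with its other probe sets under 2-fold at day 21), IRF2 (3.08) and MYH10 (2.82, with another probe set at -1.21). Among the 18 were MMP13 (-3.12, a bound), ZC3H8 (-2.24), BAG3 (-1.56), RNF34 (-1.37), FABP3 (-1.16) and CA2 (-1.09).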

How the results depend on the processing

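No paired analysis was possible because each condition has 1 array and the labels give no replicate numbers. With the spike shift subtracted, 655 probe sets were higher and 6847 lower, and the median of all members was -1.29. Centring on the median gave 3595 lower. Higher counts were 1898 with a floor at a signal of 50 and 1898 with a limit of 100. With both arrays over 50 they were 1209 higher and 1227 lower, and at 3-fold 1887 and 1395. Counted by gene they were 1558 and 1079 with the brightest probe set and 1597 and 1070 with the median one, which follows from fewer units. Subtracting the spike shift turned the median of 24 of 51 lists below 0, of which 8 had a median of at least 1 before: chondrocyte transcription factors (-0.072), small leucine-rich proteoglycans and lubricin (-0.30), collagen processing (-0.10), glycosaminoglycan synthesis (-0.15), hypertrophy and mineralisation (-0.080), smooth muscle and pericyte (-0.27), hypoxia and glycolysis (-0.060) and ribosomal proteins (-0.13). Of 199 genes given in the text, it did the same for 14, of which 11 were at least 2-fold higher before, namely IBSP (-0.080), MEF2C (-0.072), LAMB2 (-0.057), HSPG2 (-0.28), PCOLCE (-0.35), RPL30 (-0.13), RPS27 (-0.015), TPT1 (-0.10), GAPDH (-0.033), IDH2 (-0.21) and OGDH (-0.23). When the compressed construct's array replaced the uncompressed one, FABP3 (0.39), ZC3H8 (0.15) and DUSP1 (0.068) changed sign among the 195 of these genes that could be compared. The cause was not tested. Of 1887 gene values recomputed, 20 changed sign, 14 of them from a ratio of at least 2-fold, and 1498 moved by less than the standard deviation between probe sets. Part of this tally was fixed by the settings and does not measure stability. The limits of 100, and of 50 on both arrays, left the ratios of 181 and 118 genes as they were. Median centring moved all 199 by 0.46, under that standard deviation, and subtracting the spike shift moved all 199 by more than it.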

Other observations

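The 3915 members with no gene name or several had a median log2 ratio of -0.04, with 24.6% higher and 23.7% lower, against 0.17, 27.1% and 18.6% among the 7711 with 1 name. The 100 brightest probe sets held 22.4% of the summed signal with TGF-beta3 and 12.4% without it. The ratio of 3' to 5' signal for GAPDH control probe sets was 2.15 with and 2.27 without TGF-beta3, for cyclophilin 4.95 and 6.34, and for eIF4E 7.41 and 9.10. For actin it was 0.31 and 15.9, from signals under the floor throughout (4.28 over 13.7 with, 5.71 over 0.36 without TGF-beta3). Fatty acid synthesis was read by discordant probe sets in ACACA, the acetyl-CoA carboxylase, at log2 1.97 and -1.92.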
